A study of Gallus gallus with 12 samples.

Results

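Bone morphogenetic proteins (BMPs) and the genes that receive and answer them were followed in the chorioallantoic membrane (CAM) of the chick through 4 stages of development. The set holds 10 genes, the ligands BMP2, BMP4, BMP5 and BMP7, the receptors ACVR1, BMPR1A and BMPR2, and the targets ID2, ID3 and MSX1. Its members were chosen by symbol, as every probe set that the platform annotation gives to one of these genes, which found 22 of 38439 probe sets apart from controls (10 of 13009 genes named there). ACVR1 stands in that annotation under its older symbol ATVR1. Of the 22 probe sets 14 passed a filter on low signals, a signal of at least 35 in all 3 arrays of at least 1 stage, as did 17726 probe sets in all. Each of the 10 genes kept at least 1 probe set.

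The CAM is the membrane of vessels, stroma and epithelium through which the chick embryo exchanges gas, and the study followed how its vessels form and mature. Whole CAMs of chick embryos at embryonic day 5 (E5), E7, E10 and E14 were profiled, 3 individual CAMs per stage, with 1 Affymetrix chicken array for each CAM and 12 arrays in all. At E5 the tissue is the allantoic vesicle, which the study also calls CAM, so changes from E5 compare that vesicle with the later membrane. Values are signals of the authors' array software, scaled over each whole array, and levels of different probe sets are not on a common scale. In RNA of a whole membrane, fewer cells of a type and less RNA per cell cannot be told apart.

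BMPs are secreted dimers of the TGF-β superfamily. They bind type I receptors, such as ACVR1 and BMPR1A, together with a type II receptor, such as BMPR2, and the activated type I receptor phosphorylates SMAD1, SMAD5 and SMAD9, which enter the nucleus with SMAD4. The ID genes, whose products block basic helix-loop-helix transcription factors, and the homeobox gene MSX1 are among the best known genes that answer to the signal. Secreted antagonists and inhibitory SMADs hold the pathway in check, and BMP signaling is known for roles in early mesoderm, in epithelial patterning and in the endothelium.

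Median signals lay between 24.4 and 33.6 in 11 arrays and at 48.6 in E7 replicate 3, whose mean correlation with the other E7 arrays was 0.765. The 3′ to 5′ signal ratio of the actin control was 1.51 to 1.66 at E10 and 2.21 to 3.43 at E14, and 2.76 in E7 replicate 3. HINTW lies on the W chromosome, which only female birds carry. Its signals were 9.99, 2.73 and 3680 at E5, 11.7, 7633 and 110 at E7, 3830, 5386 and 4643 at E10 and 4680, 2.59 and 4458 at E14. Where HINTW is used as a covariate below, its log2 signal enters the fit, so that differences among low arrays count as well. All E10 arrays were high in HINTW and at E7 only replicate 2 was, so HINTW and stage are partly mixed over that step. The array held markers of endothelium (6 of 6, with the cadherin CDH5 from 894 to 2789), of epithelium (8 of 8), of mesenchyme (5 of 5), of mural cells (6 of 6) and of leukocytes (5 of 5). Every signal on these arrays is above 0 and there are no detection calls, so a signal alone does not show that a marker is present. KRT5 (5.38 to 50.6), ACTA2 (18.7 to 68.4) and PTPRC (3.08 to 66.4) were low throughout. The markers did not hold level over the stages. The summed epithelial signal was 3302 to 4418 at E5, 4390 to 6936 at E7, 8002 to 9019 at E10 and 15641 to 17846 at E14, that of endothelium 1845 to 2485, 3426 to 4616, 3559 to 5210 and 3930 to 5488, and that of leukocytes 201 to 258, 402 to 555, 569 to 742 and 2953 to 4313. These sums add probe sets that are not on a common scale, and EPCAM and KRT14 made up most of the epithelial one. GRHL3 went the other way after E10, with 261 to 288 at E10 and 56.1 to 62.9 at E14. Mural markers summed to 820 to 912 at E5 and 1626 to 4974 later, and mesenchymal markers to 6792 to 14382 over the 12 arrays. The 4 erythroid markers found of 7 listed had sums of 15888 to 31165 at E7, overlapping those at E5 (9820 to 17719) and above those at E10 (9905 to 13003). The difference lay in globins, above all HBZ (6083 to 11517 at E7 and 1482 to 2758 at E10), while HBA1 overlapped and RHAG, a red cell membrane protein, lay the other way (58.0 to 208 and 752 to 869). The part of these cells in the E7 to E10 changes given here was not tested.

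In the BMP set every call over a single step fell between E7 and E10. BMP4, ID3, MSX1 and 1 of 2 probe sets of ACVR1 rose over these days and BMP5 fell, whereas no member passed the test from E5 to E7 or from E10 to E14. "Rose" and "fell" stand here for a limma call, an adjusted p (Benjamini-Hochberg over all 17726 probe sets) under 0.05 with a change of over 2-fold. Of all tested probe sets 1.26%, 3.42% and 2.70% were called over the successive steps. The absence of calls among the 14 in the first and last step is therefore near the background. Without adjustment the contrast between the steps was smaller, with a limma p under 0.05 in 5, 6 and 3 of the 14 tested probe sets in turn. Among all 17726 it was so in 3072, 3765 and 3476, and the E10 to E14 count of the 14 is near that share. BMP4, ID3 and that probe set of ACVR1 are among the genes the study itself named from these arrays, and the set was put together with such results known, so that its counts are not independent evidence of a direction.

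**Figure D1:**
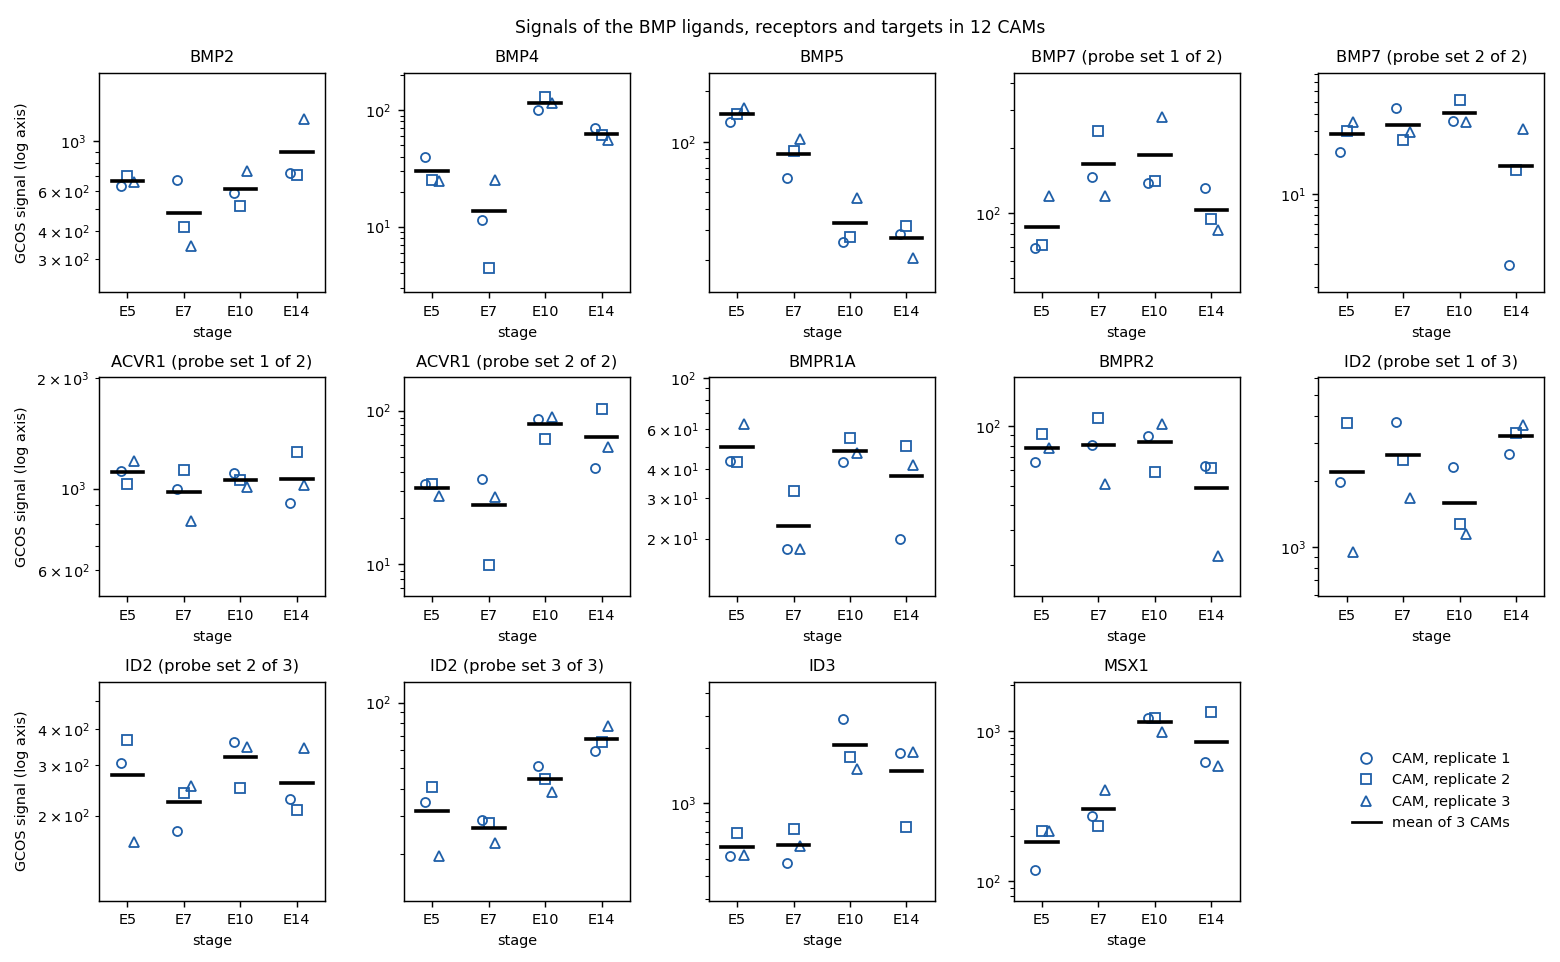
GCOS signal (log axis) of the 14 tested probe sets at E5, E7, E10 and E14, with 1 symbol per CAM (its shape gives the replicate number) and a bar at the mean of 3 CAMs; probe sets of a gene are numbered by mean signal. BMP4, ID3 and MSX1 stand higher in all 3 CAMs at E10 than in any at E7, and BMP5 stands lower.

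Among the ligands BMP4, which takes part in mesoderm formation and in the patterning of many epithelia, moved most. Its tested probe set had signals of 39.9, 25.0 and 24.6 at E5, 11.5, 4.39 and 25.2 at E7, 101, 129.7 and 114 at E10 and 70.5, 60.9 and 55.0 at E14. Every E10 CAM lay above every other CAM, the E14 CAMs came next, and the E5 and E7 CAMs overlapped. From E7 to E10 BMP4 rose from 13.7 ± 10.6 to 115 ± 14.3 (n = 3 each, log2 fold change 3.40 with SE 0.53, adjusted p = 0.00291). From E5 to E10 the rise was smaller (log2 fold change 1.98 with SE 0.53, adjusted p = 0.0171). The signals at E7 are near the floor of the array, where a log2 value is unsteady, and the size of the E7 to E10 change was 2.41 with signals under 20 set to 20 and 2.20 with 16 added to every signal. Across 23 alternatives it ranged from 2.20 to 4.01 and was called in all 23. Leaving out E5 replicate 2 or 3 ended the E5 to E10 call (adjusted p = 0.0596 and 0.0567), as did leaving out E10 replicate 2 or 3 (0.0621 and 0.0601).

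After E10 BMP4 did not pass. All 3 E14 signals lay under all 3 E10 signals, with a log2 fold change of −0.89, 95% interval −2.02 to 0.24, adjusted p = 0.368. The step from E5 to E7 gave a log2 fold change of −1.42 with SE 0.53, adjusted p = 0.200. It passed without E7 replicate 3 (−2.03, adjusted p = 0.0431), the E7 array with the highest BMP4 signal and the highest median. A further BMP4 probe set missed the filter, with 15.9, 34.5 and 14.9 at E5, 17.4, 2.04 and 24.2 at E7, 65.0, 86.4 and 32.1 at E10 and 70.1, 33.5 and 64.2 at E14. Its E10 signals again lay above all of those at E7, and with all 38439 probe sets in the fit its log2 fold change from E7 to E10 was 2.57 (SE 0.76, adjusted p = 0.11). The last of the 3 BMP4 probe sets had signals of 3.02 to 37.6, with no stage apart from all others. Its mean was highest at E7. In the same fit its log2 fold change from E7 to E10 was −0.66 (SE 0.83, adjusted p = 0.753), opposite in sign.

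BMP5, a close relative of BMP7, went the other way. It had signals of 132, 146 and 159 at E5, 61.3, 88.0 and 104 at E7, 25.2, 27.2 and 46.4 at E10 and 28.4, 31.7 and 20.5 at E14. The E5, E7 and E10 CAMs formed 3 separate ranges in falling order, and the E14 CAMs overlapped those of E10. From E5 to E14 BMP5 fell from 146 ± 13.8 to 26.9 ± 5.76 (n = 3 each, log2 fold change −2.46 with SE 0.35, adjusted p = 0.000104), and from E5 to E10 by 2.20 on the log2 scale (adjusted p = 0.000727). Both calls stood in all 23 alternatives. From E7 to E10 BMP5 fell from 84.5 ± 21.7 to 32.9 ± 11.7 (log2 fold change −1.38 with SE 0.35, adjusted p = 0.0392), a call close to the threshold that stood in 10 of 23 alternatives. Its adjusted p was at most 0.145 (without E10 replicate 1). It was 0.11 after the medians of the arrays were equalized and 0.0758 with HINTW as a covariate.

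Of the other BMP5 probe sets, both of which missed the filter, the brighter had 30.0, 49.8 and 39.2 at E5, 21.5, 16.1 and 7.04 at E7, 6.83, 0.78 and 18.7 at E10 and 6.09, 0.651 and 1.66 at E14. Its order of stages was that of the tested probe set, and with all 38439 probe sets in the fit it was called from E5 to E14 (−4.37, SE 1.14, adjusted p = 0.0111), a size that rests on E14 signals under 10. The dimmer stayed between 0.723 and 29.5.

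BMP7, known from kidney and eye development, had a maximum in the middle of the series. The brighter of its 2 tested probe sets gave 68.9, 71.0 and 119.6 at E5, 147, 239 and 119.8 at E7, 138, 141 and 277 at E10 and 130.3, 94.2 and 83.9 at E14. The E10 CAMs lay above those of E5 and of E14, and the E7 and E10 CAMs overlapped. BMP7 rose from E5 to E10 (86.5 ± 28.7 to 185 ± 79.7, n = 3 each, log2 fold change 1.07 with SE 0.35, adjusted p = 0.0430), and this call held in 10 of 23 alternatives. With HINTW as a covariate it was 0.71 (adjusted p = 0.229), where the E5 arrays were mostly low in HINTW and the E10 arrays all high. From E5 to E7 the change was 0.95 (adjusted p = 0.197) and from E10 to E14 it was −0.80 (adjusted p = 0.227), neither called. The other tested probe set had 20.8, 30.0 and 35.1 at E5, 44.4, 25.8 and 29.7 at E7, 35.8, 51.0 and 35.2 at E10 and 2.94, 15.3 and 30.8 at E14. This probe set passed the filter only through E10, so its high signals there are no separate evidence of a maximum. Its E14 CAMs lay under those of E10, but no comparison was called, and its standard error of 0.71 is wide.

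BMP2, the nearest relative of BMP4, was called in no comparison. Its signals were 633, 698 and 660.1 at E5, 675, 418 and 344 at E7, 587, 518 and 736 at E10 and 724, 709 and 1249.6 at E14. E7 replicates 3 and 2 were lowest and E14 replicate 3 was highest, and neighbouring stages overlapped. From E7 to E10 BMP2 had a log2 fold change of 0.40, 95% interval −0.17 to 0.97, adjusted p = 0.404. From E5 to E14 BMP2 gave 0.38 (adjusted p = 0.277). The remaining probe sets of BMP2 and BMP7, 2 and 1 in number, missed the filter with signals from 0.668 to 62.0 and from 3.43 to 15.2.

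Among the member receptors only ACVR1 had a call, by 1 of its 2 probe sets. ACVR1 (also called ALK2) is a type I receptor for BMP6 and BMP7 among others. Its first probe set, the brighter, had signals of 1116, 1031 and 1193 at E5, 995, 1128 and 814 at E7, 1104, 1053 and 1008 at E10 and 913, 1257 and 1023 at E14. All 4 stages overlapped, and from E7 to E10 it gave a log2 fold change of 0.12, 95% interval −0.27 to 0.51, adjusted p = 0.742. The second probe set had 33.3, 33.2 and 27.6 at E5, 35.7, 9.81 and 27.4 at E7, 87.6, 64.8 and 90.9 at E10 and 41.9, 103 and 57.5 at E14. Here the E10 and E14 CAMs lay above all E5 and E7 CAMs. It rose from 24.3 ± 13.2 to 81.1 ± 14.2 from E7 to E10 (n = 3 each, log2 fold change 1.92, 95% interval 0.88 to 2.96, adjusted p = 0.0402). The rise was read by 1 of the 2 probe sets of the gene, one with E7 signals near the floor, and its size was 1.32 with 16 added to every signal. It was called in 12 of 23 alternatives, with an adjusted p of up to 0.145 (without E10 replicate 3), and 1.36 without E7 replicate 2, whose signal of 9.81 was the lowest.

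BMPR1A, a type I receptor for BMP2 and BMP4, had its lowest mean signal at E7. Its signals were 43.6, 43.0 and 62.7 at E5, 18.0, 32.3 and 17.9 at E7, 42.9, 54.9 and 47.1 at E10 and 19.99, 50.5 and 41.6 at E14. All E7 CAMs lay under all of those at E5 and at E10, and the E14 CAMs overlapped every other stage. Neither step was called, that from E5 to E7 (log2 fold change −1.16 with SE 0.45, adjusted p = 0.212) or that from E7 to E10 (log2 fold change 1.14 with SE 0.45, adjusted p = 0.164). BMPR2, the type II receptor, stood at 65.8, 91.2 and 77.4 at E5, 80.8, 110.3 and 51.2 at E7, 89.0, 59.0 and 102 at E10 and 62.9, 62.0 and 22.3 at E14. The E5, E7 and E10 CAMs overlapped and the E14 CAMs lay under those of E5, with −0.88 from E10 to E14 (adjusted p = 0.268).

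ID3, the first of the targets, stood at one level at E5 and E7 and at a higher one at E10. It had signals of 519.9, 687 and 523 at E5, 473, 725 and 585 at E7, 2887, 1783 and 1544 at E10 and 1876, 741 and 1899.9 at E14. The E5 and E7 CAMs were alike in range, all E10 CAMs lay above them, and at E14 replicate 2 fell back close to the E7 range while the other 2 CAMs did not. ID3 rose from 594 ± 126 to 2071 ± 716 from E7 to E10 (n = 3 each, log2 fold change 1.77 with SE 0.33, adjusted p = 0.00840). The call held in 22 of 23 alternatives and was lost without E10 replicate 1, the CAM with the highest ID3 (adjusted p = 0.0518). From E5 to E10 it rose by 1.8 and from E5 to E14 by 1.27 (adjusted p = 0.00200 and 0.00753), the second not called after the medians were equalized (0.98, adjusted p = 0.0851). E14 replicate 2 was also the E14 array without HINTW signal (2.59), and with HINTW as a covariate the change from E5 to E14 was 1.10 (adjusted p = 0.0125) and from E7 to E10 1.51 (adjusted p = 0.0216).

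MSX1, a homeobox repressor active where epithelium and mesenchyme meet, had signals of 119, 216 and 214 at E5, 270.3, 231 and 406 at E7, 1210.3, 1210.5 and 987 at E10 and 616, 1326 and 583 at E14. The order of the stages was E5, E7, E14 and E10, with no overlap between E5 and E7 or between E7 and either later stage, and with the E14 CAMs on both sides of those at E10. MSX1 rose from 303 ± 91.7 to 1136 ± 129 from E7 to E10 (n = 3 each, log2 fold change 1.94 with SE 0.32, adjusted p = 0.00431), in all 23 alternatives. From E5 to E10 it rose by 2.68 (adjusted p = 8.82e-05), the largest rise of a member from E5, and from E5 to E14 by 2.14 (adjusted p = 0.000162), again in all 23. In E14 replicate 2, where ID3 was lowest among the E14 CAMs, MSX1 was highest. Of the 8 epithelial markers 4 lay higher in all E10 CAMs than in all E7 CAMs (KRT14 with 382 to 837 and 1131 to 2506, CDH1 with 758 to 1019 and 1581 to 1792, CLDN3 and GRHL3), EPCAM (2566 to 4408 and 3659 to 3834), KRT5 and COL17A1 overlapped, and KRT75 lay lower. Their part in the rises of MSX1, ID3 and BMP4 was not tested.

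ID2 gave no single answer. Its brightest probe set had signals of 1983, 3722 and 944 at E5, 3776, 2502 and 1678 at E7, 2340.2, 1274 and 1143 at E10 and 2676, 3353 and 3661 at E14. The spread within E5 was as wide as that between stages, and no comparison was called, with −0.74 from E7 to E10 (adjusted p = 0.325) and 1.09 from E10 to E14 (adjusted p = 0.170). The second ranged from 162 to 366 with all stages overlapping. The third rose from E5 to E14, from 34.8, 40.7 and 19.4 to 59.9, 65.6 and 78.1 (31.6 ± 10.98 to 67.8 ± 9.29, n = 3 each, log2 fold change 1.16 with SE 0.39, adjusted p = 0.0294). That call held in 15 of 23 alternatives, and it was lost after the medians were equalized (0.87, adjusted p = 0.156). The fourth ID2 probe set missed the filter, with signals from 3.21 to 38.1.

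**Figure D2:**
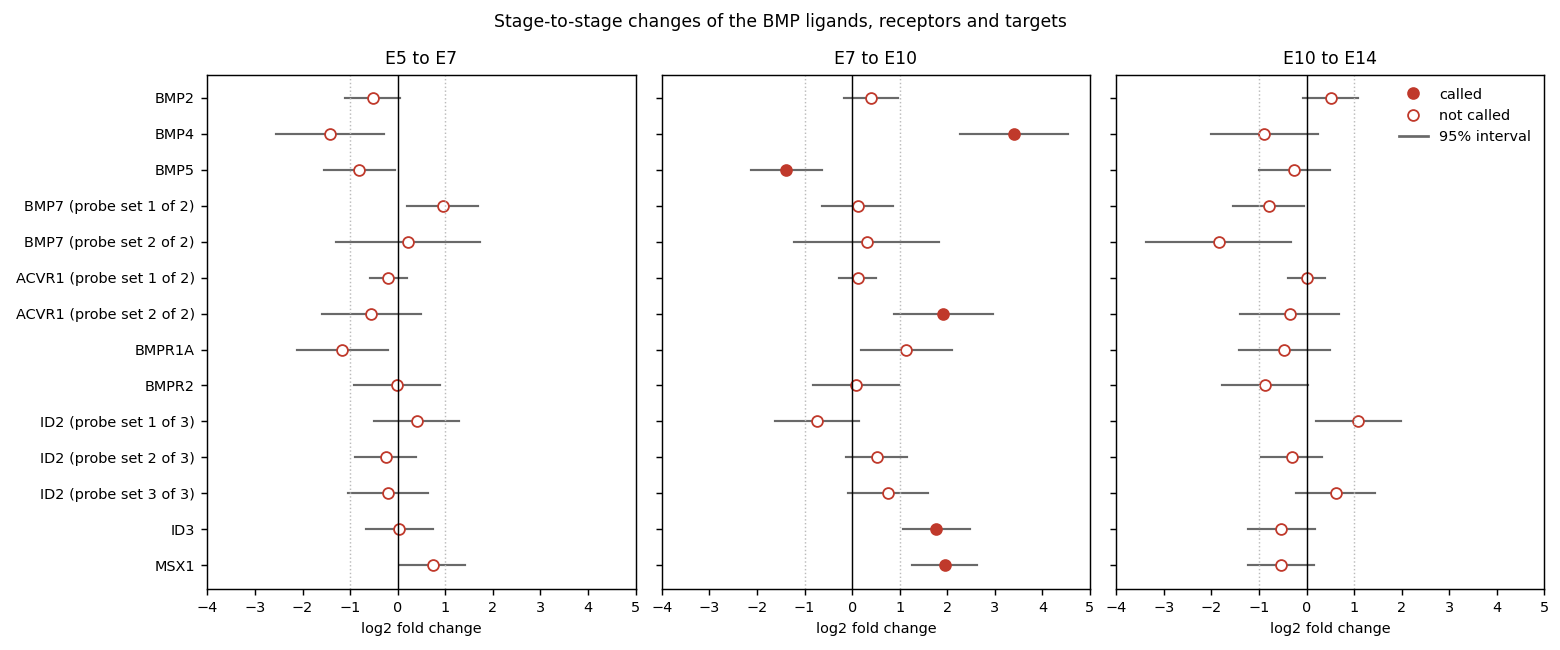
Log2 fold change (x axis) of the 14 tested probe sets (rows) over the 3 successive steps, with 95% intervals as lines, dotted lines at a 2-fold change, and filled circles for calls. The 5 filled circles all stand in the middle panel, 4 of them to the right.

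Set against all probe sets tested, the members' counts were these. From E5 to E7, 0 of the 14 were called, beside 1.26% of all probe sets (1.02% higher and 0.243% lower). From E7 to E10, 4 rose and 1 fell, 35.7% of the 14 beside 3.42% of all (2.75% higher and 0.671% lower). From E10 to E14, 0 were called beside 2.70% (1.22% higher and 1.48% lower). Both counts of 0 are near the background. Without adjustment, the limma p was under 0.05 in 5, 6 and 3 of the 14 over these steps. Among all 17726 probe sets it was so in 3072, 3765 and 3476, and the E10 to E14 count of the 14 is near that share. From E5 to E10, 4 rose (BMP4, BMP7, ID3, MSX1) and 1 fell (BMP5) beside 14.1% (9.36% higher and 4.78% lower), and from E5 to E14, 3 rose (ID2, ID3, MSX1) and 1 fell (BMP5), 28.6% beside 28.4% (14.8% higher and 13.6% lower), a share near the background.

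The median log2 fold change of the 14 was −0.20, 0.46 and −0.41 over the successive steps, where that of all tested probe sets was −0.04, 0.06 and −0.05. Signals of the compared stages did not overlap in 4, 7 and 5 of the 14 over the successive steps, beside 22.2%, 26.3% and 29.2% of all, and in 7 and 8 of the 14 from E5 to the later stages E10 and E14, beside 46.9% and 54.4%. Asking for a mean fold over 2 besides, with no p, left 1, 6 and 2 of the 14 over the steps (5.89%, 8.89% and 7.78% of all) and 6 and 6 from E5 to the later stages (18.6% and 30.6%). These comparisons share arrays, so a low E7 value enters the steps before and after it. A probe set could pass the filter through the stages where it is high. BMP4, the second ACVR1 probe set and the third ID2 probe set did so at E10 and E14. The second BMP7 probe set did so at E10 alone, BMP5 at E5 and E7, and BMPR1A at E5 and E10. BMPR2 missed the filter value at E14 alone. The shares of the 14 are a description for that reason too.

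**Figure D3:**
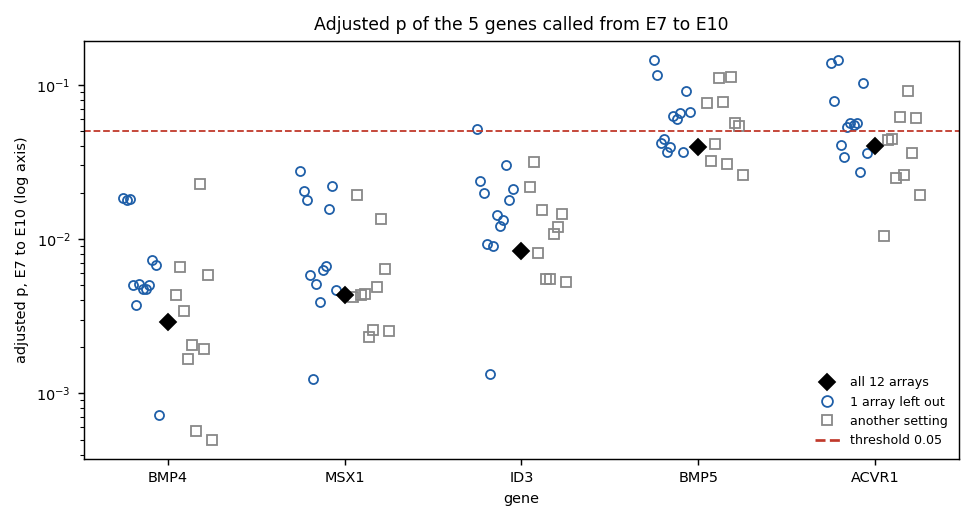
Adjusted p (log axis) from E7 to E10 for the 5 genes called, ACVR1 by its second probe set, in the fit of all 12 arrays (diamond), with 1 array left out (circles, 12 per gene) and under other settings (squares, 10 per gene). BMP4 and MSX1 stay under the dashed threshold of 0.05 at every point, ID3 crosses it once, and BMP5 and ACVR1 lie on both sides.

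Other genes of the BMP pathway were taken from 5 lists of 90 genes, of which 74 are on the array under 1 symbol and 55 were tested by their brightest probe set. Apart from the 10 members this leaves 45 genes, of which 3 rose from E5 to E7, 2 rose from E7 to E10, 1 fell from E10 to E14, 10 rose and 1 fell from E5 to E10, and 13 rose and 4 fell from E5 to E14. These are shares of 6.67%, 4.44%, 2.22%, 24.4% and 37.8%, beside 1.26%, 3.42%, 2.70%, 14.1% and 28.4% of all tested probe sets, and those of E7 to E10 and E10 to E14 are near the background. Here and in the lists below, a gene counts by its brightest probe set and the background by every tested probe set. The 2 are unlike sets, so the shares are set side by side as a description. Their median log2 fold change was −0.03 from E5 to E7, 0.44 from E7 to E10 and 0.01 from E10 to E14. In 26 of the 45 no comparison was called.

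Of 8 tested ligands BMP6, the closest relative of BMP5 and BMP7, was the only one called beside the members. It had 29.8, 27.5 and 77.8 at E5 and 118, 131 and 223 at E10, and rose from E5 to E10 (log2 fold change 1.92 with SE 0.39, adjusted p = 0.00408), opposite in sign to BMP5. With the members, which were chosen with earlier results known, 25.0% of the 8 were called from E7 to E10, beside 3.42% of all. From E5 to E10 it was 50.0% beside 14.1%, and from E5 to E14 25.0% beside 28.4%, the last near the background. Of 7 tested receptors and co-receptors ENG, the endothelial co-receptor endoglin, was the only one called by its brightest probe set. It rose from 49.5 ± 13.0 to 309 ± 16.2 from E5 to E14 (n = 3 each, log2 fold change 2.67 with SE 0.45, adjusted p = 0.000392), and its E7 signals of 83.3, 37.5 and 201 were widely spread, highest in replicate 3. Summed endothelial markers were higher at E14 than at E5 as well, 3930 to 5488 beside 1845 to 2485, and their part in the rise of ENG was not tested. ACVR2A and ACVR2B, type II receptors, had 384 to 704 and 123 to 289.5 and no call. Of the 7, 14.3% were called from E5 to E10 beside 14.1% of all, near the background. From E5 to E14 it was 14.3% beside 28.4%, under it.

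Among 15 tested SMADs and their regulators none was called over a single step, and 2 rose and 2 fell from E5 to E14, 26.7% beside 28.4% of all, a share near the background. SMAD1, which carries the BMP signal to the nucleus, rose from 45.9 ± 21.4 to 128 ± 20.8 from E5 to E14 (n = 3 each, log2 fold change 1.61 with SE 0.40, adjusted p = 0.00550), and the inhibitory SMAD7 from 101 ± 29.4 to 306 ± 139 (log2 fold change 1.52 with SE 0.41, adjusted p = 0.00855). The repressors of SMAD activity SKI and SKIL fell from E5 to E14 (SKIL is named after its values were seen), SKI with signals of 43.6, 47.1 and 41.6 and 42.4, 3.28 and 1.98, so that its call rests on E14 replicates 2 and 3. SMAD6, the inhibitory SMAD most tied to BMP, had 856 to 1877 over the 12 arrays, and BAMBI, a pseudoreceptor that dampens the signal, 1983 to 4337. Neither was called in any comparison, although both have signal in every CAM.

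The secreted antagonists and modulators held both of the E7 to E10 calls outside the members. NBL1, an antagonist also known as DAN, had 81.9, 109 and 83.8 at E5, 111, 197 and 244 at E7, 423, 483 and 524 at E10 and 561, 716 and 407 at E14. It rose from E7 to E10 (log2 fold change 1.44 with SE 0.29, adjusted p = 0.0115), in all 3 E10 CAMs above every E7 CAM, and a second NBL1 probe set rose too (1.53, SE 0.37, adjusted p = 0.0305). That second probe set was also called from E5 to E7 (1.72, adjusted p = 0.0329), where the brightest was not. CRIM1, a membrane protein that binds BMPs, had 137, 109 and 146 at E7 and 287, 296 and 368 at E10 (log2 fold change 1.28 with SE 0.22, adjusted p = 0.00530), and its second probe set gave 1.48 (SE 0.33, adjusted p = 0.0223). TLL1, a protease of the tolloid family that cuts the antagonist chordin, rose from E5 to E7, from 30.3, 44.9 and 36.7 at E5 to 138, 120.1 and 196 at E7 (log2 fold change 2.01 with SE 0.33, adjusted p = 0.00679). Without E10 replicate 3 only 1 pathway gene outside the members was called from E7 to E10, and 4 were without E7 replicate 3. Of 8 tested genes of this list 4 rose and 0 fell from E5 to E14, 50.0% beside 28.4% of all probe sets (14.8% higher and 13.6% lower). The fourth was CHRD, chordin itself, named here after its values were seen (1.02, adjusted p = 0.0379). NOG, the antagonist noggin, missed the filter.

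Of 17 tested genes known to respond to BMP, the members among them, 7 rose and 2 fell from E5 to E14. That is 52.9% beside 28.4% of all probe sets (14.8% higher and 13.6% lower). RUNX2, the factor of bone-forming cells, had 21.7, 4.15 and 4.82 at E5 and 121, 82.6 and 87.3 at E14 (log2 fold change 3.66 with SE 0.56, adjusted p = 0.000184), and since its E5 signals lie near the floor the size is unsteady. MSX2, the paralog of MSX1, rose from 537 ± 210.2 to 1421 ± 445 (n = 3 each, log2 fold change 1.44 with SE 0.32, adjusted p = 0.00276), and was not called from E7 to E10. DLX5 (log2 fold change 1.59 with SE 0.33, adjusted p = 0.0291) and HEY1 (log2 fold change 1.56 with SE 0.29, adjusted p = 0.0138), the latter a target of Notch as well, rose from E5 to E7 as TLL1 did, and without E7 replicate 3 only 1 pathway gene was called over this step. TFAP2A, an early marker of surface ectoderm, rose from E5 to E14 (log2 fold change 1.49 with SE 0.49, adjusted p = 0.0275). HAND2 and TBX20, factors of heart and lateral mesoderm, fell from E5 to E14 by 2.67 and 2.27 on the log2 scale (adjusted p = 0.000163 and 0.00784). TBX20 passed the filter only through E5, and with E14 signals of 21.3, 21.3 and 5.71 the size of its fall is unsteady. ID1, the third ID gene, had 1422 to 2884 and no call. SNAI2, the only pathway gene called from E10 to E14 by its brightest probe set and named after its values were seen, fell from 736 ± 59.0 to 359 ± 139 (log2 fold change −1.11 with SE 0.28, adjusted p = 0.0447), and no pathway gene was called over this step by its brightest probe set in 8 of the 12 fits with 1 array left out, those without any 1 of the E10 arrays among them. FSTL1, a follistatin-like protein of the antagonist list and also named after its values were seen, was called from E10 to E14 by its second probe set (−1.53, adjusted p = 0.0264) and not by its brightest (−1.12, adjusted p = 0.25).

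**Figure D4:**
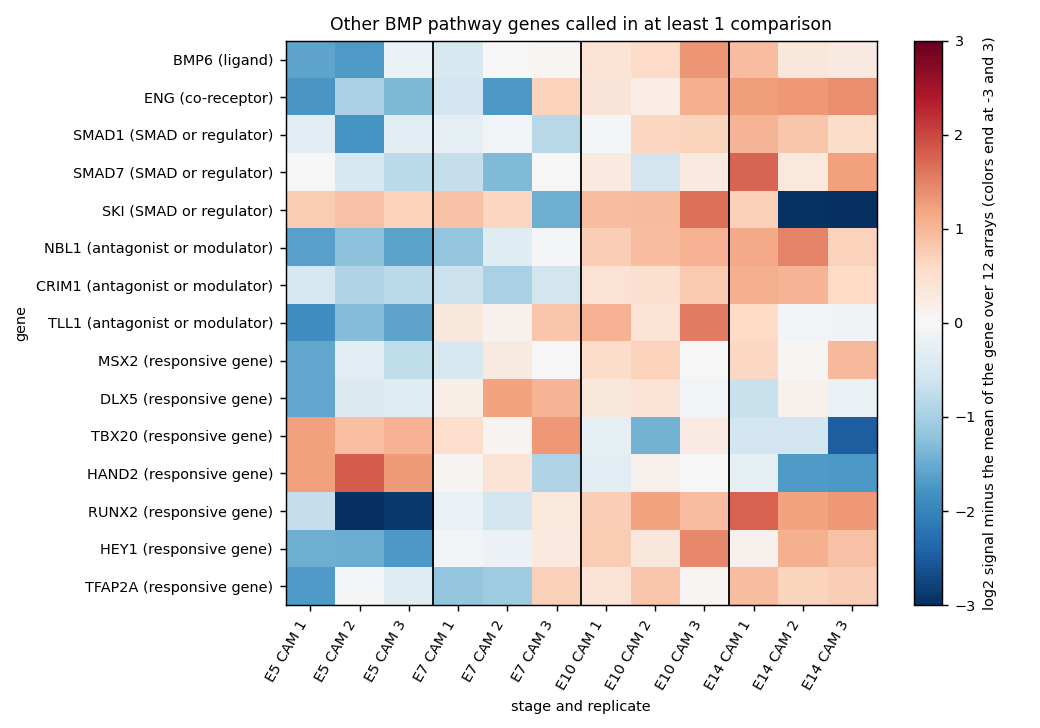
Log2 signal minus the mean of each gene over 12 arrays (color, scale ending at −3 and 3) for 15 other BMP pathway genes that were called in at least 1 comparison, with the 12 CAMs in columns ordered by stage. NBL1 and CRIM1 turn from blue to red between E7 and E10, and TLL1 between E5 and E7. HEY1 is blue at E5, near its mean at E7 and red at E10 and E14. HAND2 and TBX20 run from red to blue.

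Last, probe sets whose course over the 12 arrays was most like that of a member gene with a call, read by the brightest probe set of that gene, were ranked by the root mean square difference in log2 signal, each centered on its own mean. This is a description over 12 arrays that share their stages, without a test. For MSX1, whose own SD over the arrays was 1.19, the nearest were the actin nucleator FMN1 (0.33), the sphingomyelinase SMPD1 (0.37) and the antagonist NBL1 (0.43). For ID3 (SD 0.92) they were the netrin receptor UNC5B (0.34), LOC100857512 (0.37) and the acetyltransferase KAT5 (0.37). UNC5B shared the low value of E14 replicate 2, with 637, 242 and 538 at E14. For BMP4 (SD 1.45) the nearest, MAP2K2 (0.60), MMRN1 (0.67) and B3GAT3 (0.67), were less close. For BMP5 (SD 1.09) they were the mitotic kinesins KIF11 (0.32) and KIF18A (0.38) and, between them, WDR77 (0.33). For BMP7 (SD 0.62) they were the homeobox gene MEOX2 (0.28), the semaphorin SEMA6D (0.34) and RFTN1 (0.35). The brightest probe set of ID2, not itself called, was nearest to LOC768709 (0.34), SOX30 (0.41) and RPL35A (0.42). The first ACVR1 probe set, also not called, hardly varied (SD 0.17) and was nearest to USP28, PGAM5 and RAD23B (0.10 each).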

How the data were processed

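Total RNA of whole CAMs was hybridized to Affymetrix chicken arrays, 1 CAM per array. The intensity values deposited by the authors are GCOS 1.2 signals, made at default settings and scaled to a common target per array, with no logarithm taken and no detection calls. The annotation gives 1 gene symbol to 27168 of 38439 probe sets apart from 96 controls, several to 177 and none to 11094.

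Tests used limma (version 3.58.1, under R 4.3.3) on log2 signals, with a single model for 12 arrays, a mean for each of 4 stages and variances moderated with an intensity trend. A filter of a signal of at least 35 in all 3 arrays of at least 1 stage stood in for the present calls of the methods. A call is an adjusted p under 0.05 with a log2 fold change over 1 in size. The study's methods name SAM, with a rank sum statistic, permuted labels, a limit on the false discovery rate and a mean fold over 2. SAM was not run here. A rank sum test of a single probe set cannot give a p under 0.10 with 3 against 3. A looser rule was tried as an alternative, signals that do not overlap with a mean fold over 2, without a false discovery rate.

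The members, the 5 pathway lists and the marker lists were chosen with earlier results of these data known. All members are named, and of other pathway genes up to 15 with the largest called change, by the brightest probe set over all arrays. On simulated data for the step from E7 to E10 with 17726 probe sets, 62 of 100 changed 3-fold and 88 of 100 changed 6-fold were found, with 8 false calls. The noise was drawn independently for each probe set and array, without a shift of a whole array like the high median of E7 replicate 3. These rates therefore need not hold for the real arrays. The number of arrays limits the precision. The replicates are CAMs of separate embryos, and their numbers are not stated to pair them. Samples with the same number had correlations of −0.14 to 0.0712 in their deviations from the stage means, none of 18 over 0.1. Alternatives changed the filter, low signals, normalization, variance model, arrays, covariates and call rule, and left out each array. No sequence is shown, since no sequence table was used here.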

Additional observations from a re-analysis of the deposited data

How the results depend on the processing

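No result changed direction while called. Of 1605 member fold changes recomputed, 1532 stayed on their side of the threshold, 51 lost a call, 22 gained one and 0 reversed, and among the first 45 changed sign without being called in either fit. Of 14 member probe sets, 5 were called from E7 to E10, but 3 with no filter on low signals, 3 with only the 6 arrays of the 2 stages and 3 with the replicate number as a block, which cost the calls of ACVR1 (adjusted p = 0.0606) and BMP5 (0.0541), and from E5 to E10 that of BMP7 (0.0582). The block changed no other member call, and as the numbers do not pair the CAMs it is a check only. With medians equalized 2 members instead of 4 were called from E5 to E14. The rule of no overlap with a mean fold over 2 called 1 from E5 to E7 (BMPR1A) and 2 from E10 to E14 (ID2 and BMP7) where limma called 0.

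Over all tested probe sets, equalized medians gave 29 calls instead of 223 from E5 to E7, 212 instead of 479 from E10 to E14 and 1474 instead of 2508 from E5 to E10, and the rule of no overlap gave 1044, 1575 (against 606) and 1379 over the successive steps. Counts of the other pathway genes under alternatives were added after seeing the data. With medians equalized they were 0 instead of 3 from E5 to E7, 0 instead of 1 from E10 to E14 and 7 instead of 11 from E5 to E10. The E10 to E14 count was also 0 with no filter, without the trend, with 6 arrays only and with HINTW as a covariate, and the rule of no overlap gave 6, 4 and 5 over the successive steps.

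With each array left out in turn, member counts ranged from 0 to 1 (E5 to E7, 1 without E7 replicate 3), 2 to 5 (E7 to E10, 2 without E10 replicate 1 and 3 without any E5 array, E7 replicate 2 or E10 replicate 2), 0 to 0 (E10 to E14), 3 to 6 (E5 to E10, 3 without E5 replicate 2, E10 replicate 2 or E10 replicate 3) and 3 to 5 (E5 to E14). Those of all probe sets ranged from 125 to 243 (lowest without E5 replicate 1, and 129 without E5 replicate 2), 260 to 766 (260, 261 and 390 without E10 replicates 3, 1 and 2), 168 to 727 (168 and 200 without E10 replicates 2 and 1, 727 without E7 replicate 3), 1660 to 2849 (lowest without E10 replicate 3) and 4408 to 5419. Those of the other pathway genes ranged from 1 to 4, 1 to 4, 0 to 3, 8 to 13 and 13 to 18. The cause of these shifts was not tested. Signals near the floor limit BMP4, the second ACVR1 probe set and BMPR1A at E7, RUNX2 at E5, and SKI and TBX20 at E14. Low signals at E10 and E14 also limit the size of the BMP5 fall.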
